A study of Mus musculus with 2 samples.

Results

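The metallothioneins and the zinc transporters, with the metal-sensing transcription factor MTF1, were examined in G1E cells as 10 genes: Mt1, Mt2, Mt3, Mtf1, Slc30a1, Slc30a5, Slc39a1, Slc39a7, Slc39a8 and Slc39a10. They were chosen by name, with earlier results of these data known. Through their gene identifiers they were found as 10 of the 43346 genes in the tables, 21474 of which are protein-coding. G1E is an immortalised mouse line of erythroid progenitors, male and postnatal (age 0 day), which the labels call Gata1-. Poly(A) RNA was read as single-end sequence in 2 libraries, labelled biological replicates 1 and 2 of the same biosample, with no treatment and no second genotype. The design therefore asks which of these genes were transcribed, how their levels compare, and how far the libraries differ in each. A single line stands for the cell type, and nothing beyond the replicate label shows separate cultures, so the spread between the libraries may be technical.

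Zinc is held at a very low free concentration in the cytosol. Metallothioneins are small proteins whose many cysteines bind zinc, copper and cadmium. SLC30 proteins (ZnT) move zinc out of the cytosol, across the plasma membrane or into organelles, and SLC39 proteins (ZIP) move it into the cytosol. MTF1 binds free zinc and then activates metallothionein genes and Slc30a1 through short metal response elements in their promoters. Erythroid cells need zinc for carbonic anhydrase and for a haem synthesis enzyme, and a shift between the importer Slc39a8 and the exporter Slc30a1 has been described in maturing mouse erythroid cells.

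Replicate 1 held 31645051 expected counts (estimated reads per gene) and replicate 2 held 56983558. Levels are in TPM, counts divided by effective transcript length and scaled to a common total per library; a mean is shown with its SD (n = 2). The share of protein-coding genes in all TPM was 84.4% in replicate 1 and 75.1% in replicate 2. The labelled cell type was checked against its defining genes: 10 of 10 erythroid progenitor markers, among them Gata2, Klf1 and Epor, reached 1 TPM in both libraries, and their median was 164 TPM. Of the markers of other cells, 2 of 6 myeloid genes (Cd68 and Lyz2) and 1 of 4 squamous epithelial genes (Krt10) reached 1 TPM in both libraries, and none of 5 lymphoid, 5 fibroblast, 4 liver and 6 neural genes did. The neural markers summed to 4.38 TPM in replicate 1 and 0.33 TPM in replicate 2; lymphoid markers summed to 2.67 and 0.21 TPM. In RNA from a bulk culture, fewer cells of a type and less RNA per cell cannot be told apart.

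Mt1 and Mt2 were among the most abundant messages of the cells, while the other genes of their cluster were at or near 0. Mt1, a metallothionein found in most tissues, had 3912.64 TPM in replicate 1 and 3948.47 TPM in replicate 2, a mean of 3931 ± 25.3 TPM (SD, n = 2) from 46152 and 87011 counts. Mt2, its close relative, had 2357.57 TPM in replicate 1 and 2455.84 TPM in replicate 2, a mean of 2407 ± 69.5 TPM (SD, n = 2) from 28690 and 55900 counts. Mt1 ranked 22 and 18 among protein-coding genes and Mt2 ranked 47 and 39. On this TPM scale both genes stood at nearly the same level in the libraries, with an SD of a few percent of the mean at most. With TPM rescaled over protein-coding genes both were higher in replicate 2. Mt1 then had 4637 and 5255 and Mt2 2794 and 3269 in replicates 1 and 2. Together they made up 0.743% of the TPM of all protein-coding genes in replicate 1 and 0.852% in replicate 2, a mean of 0.798% ± 0.077 (SD, n = 2). Mt1 supplied 62.4% and 61.7% of their sum.

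Mt3, best known in the brain, gave 1 count in replicate 1 and none in replicate 2, or 0.09 and 0.00 TPM. The exact 95% Poisson interval of that 1 count runs from 0.0253 to 5.57 counts. In replicate 2 a limit of 3 counts, the one-sided 95% limit for a count of 0, would have been 0.137 TPM. Mt4, the metallothionein of stratified epithelium, had no count in either library, for which the same limit is 0.361 and 0.196 TPM. In replicate 2, Mt1 was at least 28884-fold higher than Mt3 and at least 20112-fold higher than Mt4, against that limit of 3 counts. Against Mt4 in replicate 1 it was at least 10845-fold higher. These limits cover counting error only. The single Mt3 count fell in replicate 1, whose higher marker sums were not limited to neural genes. Lymphoid, fibroblast, liver and squamous epithelial markers also summed higher there, for example 1.28 against 0.03 TPM for fibroblast markers. Myeloid markers went the other way, with 16.74 against 22.63 TPM. The median level of all protein-coding genes was higher in replicate 1 as well, at 0.55 against 0.12 TPM. The part of other cells in the Mt3 count was not tested. Of 4 markers of the epithelium where Mt4 is best known, Krt5 and Lor had no count in either library, Krt14 had 3 counts in replicate 1 and none in replicate 2, and Krt10 had 2.90 and 2.44 TPM.

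The 4 genes lie side by side on the plus strand of chromosome 8 in the assembly GRCm38, in the order Mt4, Mt3, Mt2 and Mt1, from 94137197 to 94180327, a span of 43131 bases. Mt3 (ENSMUSG00000031760.8) runs from 94152607 to 94154146, Mt2 (ENSMUSG00000031762.6) from 94172664 to 94173568 and Mt1 (ENSMUSG00000031765.7) from 94179082 to 94180327. Only 5513 bases separate Mt2 from Mt1, the pair of high genes, and 18517 bases separate Mt3, near 0, from Mt2. The protein-coding neighbours within 100000 bases were chosen after the values were seen. Ogfod1 stood at 13.01 and 12.47 TPM, Bbs2 at 8.06 and 7.53 TPM and Nup93 at 67.04 and 64.76 TPM, so that the high level was held by Mt2 and Mt1 and by no other protein-coding gene within that distance.

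The coding sequences of the 3 members of the cluster are shown because their reads must be told apart for these levels to stand, and because the cysteine codons, in capitals, carry the metal-binding chemistry. They were read from GENCODE release M21 transcripts on GRCm38, plus strand, each from 3 exons. Mt1-201 and Mt2-201 each have 61 codons, 20 of them (32.8%) for cysteine, and Mt3-201 has 68, also with 20 for cysteine (29.4%).
Mt1-201: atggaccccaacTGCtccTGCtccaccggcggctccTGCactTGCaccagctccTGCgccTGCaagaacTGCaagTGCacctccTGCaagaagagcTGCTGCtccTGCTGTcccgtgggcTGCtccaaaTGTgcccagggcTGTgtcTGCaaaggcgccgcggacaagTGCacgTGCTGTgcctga
Mt2-201: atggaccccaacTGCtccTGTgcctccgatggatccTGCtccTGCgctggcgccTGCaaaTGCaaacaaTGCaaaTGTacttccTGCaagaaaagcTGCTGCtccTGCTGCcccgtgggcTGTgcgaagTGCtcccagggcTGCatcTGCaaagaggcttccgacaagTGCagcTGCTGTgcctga
Mt3-201: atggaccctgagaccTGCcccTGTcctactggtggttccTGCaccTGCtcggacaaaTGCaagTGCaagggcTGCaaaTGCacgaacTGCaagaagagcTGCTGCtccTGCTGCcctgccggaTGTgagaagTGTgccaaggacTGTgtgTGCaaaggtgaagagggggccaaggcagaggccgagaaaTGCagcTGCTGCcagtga
Mt1 and Mt2 were identical at 148 of 186 aligned coding bases (79.6%), Mt1 and Mt3 at 66.2% and Mt2 and Mt3 at 67.6% of aligned positions. The longest identical stretch of their transcripts was 20 bases for Mt1 and Mt2, 27 for Mt1 and Mt3 and 20 for Mt2 and Mt3. All are shorter than the reads, whose lengths implied by the effective lengths were 36 and 55 bases. None of the 36-base words of Mt1 or Mt3 occurred in another gene. Of Mt2's words, 54.6% also occurred in Gm45774, an overlapping antisense gene that is not among the genes of the tables. The sources used here do not say whether counting used strand, so reads from that gene and from Mt2 cannot be told apart.

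Metal response elements were looked for in the promoter windows of the members, 250 bases before to 50 after each start in the RefSeq table for GRCm38.p6. The core was spelled TGCACNC or TGCGCNC and read on both strands, and overlapping matches at different positions were each counted. The matches in the members did not overlap. It was found in 6 of the 12 windows of the members (Slc39a8 and Slc39a10 have 2 each), against 25.9% of 32544 windows in the table. Counted by gene, 6 of 10 members held it in a window, against 28.2% of 27025 genes. Mt2 held 4 matches, which 0.522% of windows reached, and Mt1 held 3, which 1.99% reached. Slc30a1 held 2, as 7.17% of windows did or exceeded, and Mt3, Slc30a5 and Slc39a8 held 1 each, the last in 1 of its 2 windows. No match lay in the windows of Mtf1, Slc39a1, Slc39a7 and Slc39a10, which says only that these letters are not there. The windows of the metallothioneins and of Slc30a1, the best known MTF1 targets, are shown with the matches in capitals; a match on the opposite strand appears as its reverse complement. They cover chr8:94178839-94179138 for Mt1, chr8:94172368-94172667 for Mt2, chr8:94152357-94152656 for Mt3 and chr1:191906531-191906830 for Slc30a1, all on the plus strand.
Mt1 promoter: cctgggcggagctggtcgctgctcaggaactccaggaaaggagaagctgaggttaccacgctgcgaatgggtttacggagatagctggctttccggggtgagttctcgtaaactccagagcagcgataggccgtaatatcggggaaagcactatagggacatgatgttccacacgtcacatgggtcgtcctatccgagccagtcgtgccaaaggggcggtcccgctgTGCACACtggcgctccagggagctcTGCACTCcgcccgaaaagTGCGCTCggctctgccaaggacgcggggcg
Mt2 promoter: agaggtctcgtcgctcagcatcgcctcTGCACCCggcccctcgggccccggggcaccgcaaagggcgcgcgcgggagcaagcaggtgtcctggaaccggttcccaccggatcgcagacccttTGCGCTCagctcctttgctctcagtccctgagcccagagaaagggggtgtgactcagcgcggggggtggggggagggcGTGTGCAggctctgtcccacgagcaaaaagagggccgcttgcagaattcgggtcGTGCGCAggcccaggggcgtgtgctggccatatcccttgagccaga
Mt3 promoter: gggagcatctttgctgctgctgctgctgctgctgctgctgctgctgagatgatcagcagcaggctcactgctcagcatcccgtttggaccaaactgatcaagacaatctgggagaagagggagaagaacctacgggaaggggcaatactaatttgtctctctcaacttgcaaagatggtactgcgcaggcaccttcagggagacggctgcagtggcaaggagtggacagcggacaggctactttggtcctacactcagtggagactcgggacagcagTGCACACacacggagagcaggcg
Slc30a1 promoter: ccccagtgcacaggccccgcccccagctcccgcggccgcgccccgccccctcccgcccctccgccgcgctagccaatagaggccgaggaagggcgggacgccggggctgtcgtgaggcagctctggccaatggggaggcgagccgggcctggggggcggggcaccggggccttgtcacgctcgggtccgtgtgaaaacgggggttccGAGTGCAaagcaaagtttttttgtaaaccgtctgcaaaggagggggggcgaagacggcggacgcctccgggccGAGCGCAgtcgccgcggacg
Relative to the RefSeq start, the Mt1 matches began at -23, 2 and 20 and those of Mt2 at -223, -128, -50 and 4. The coding sequences begin beyond these windows, at 94179311 for Mt1 and 94172848 for Mt2. The sequence between was not searched, and no other start site of these genes was considered, so elements may have been missed. The match of Mt3 began at 27, and those of Slc30a1 at -43 and 30. Mt3 thus held a core in its window with at most 1 count in a library, and Slc39a7 and Slc39a1, the most abundant transporters among the members, held none. A match is a description of letters and was not tested as a binding site.

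Mtf1, which encodes the zinc sensor itself, stood at a moderate level. It had 16.57 TPM in replicate 1 and 18.23 TPM in replicate 2, a mean of 17.4 ± 1.17 TPM (SD, n = 2), above 75.1% of protein-coding genes. Of these levels Mtf1-204, a short transcript annotated with a retained intron, held 6.76 and 12.43 TPM. The protein-coding Mtf1-202 held 9.69 and 0.50 TPM and Mtf1-201 0.00 and 4.19 TPM. The closeness of the libraries in the gene total therefore does not extend to its protein-coding transcripts. The gene (ENSMUSG00000028890.9) lies on the plus strand of chromosome 4 from 124802104 to 124849800. Its expected counts were 1822 and 2052, and the effective lengths behind its TPM were 4707 bases in replicate 1 and 2483 bases in replicate 2. Of the 36-base words of Mtf1, 7.71% are shared with 1110065P20Rik on the opposite strand, which had 20.73 and 26.47 TPM. All 8 genes on a list of metallothionein regulators reached 1 TPM in both libraries, against 42.5% of protein-coding genes. Their median was 35.5 TPM, against 23.5 TPM for the median of protein-coding genes that were expressed in both. Usf2, a basic helix-loop-helix factor, had 158.44 TPM in replicate 1 and 79.78 TPM in replicate 2, with Usf1 at 33.46 and 32.31 TPM. Stat3, which mediates interleukin-6 signals, had 139.69 and 82.53 TPM, Sp1 64.09 and 28.59 TPM, the glucocorticoid receptor gene Nr3c1 38.77 and 32.66 TPM, and the oxidative stress factor Nfe2l2 37.31 and 33.09 TPM. Mtf2, which was named for metal response but encodes a Polycomb protein, had 15.50 TPM in replicate 1 and 30.46 TPM in replicate 2. Mtf1 was higher than Mtf2 in replicate 1 and lower in replicate 2, so no order between them was given.

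**Figure D1:**
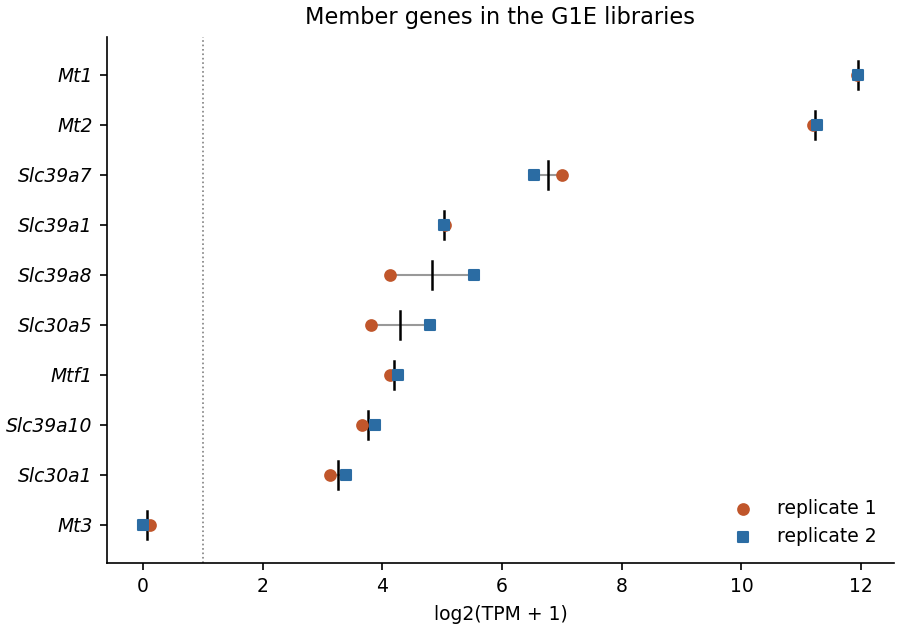
Level of the 10 member genes as log2(TPM + 1) on the horizontal axis, with circles for replicate 1, squares for replicate 2, a black bar for the mean and a dotted line at 1 TPM. Mt1 and Mt2 stand apart at the top with means of 3931 and 2407 TPM, 7 genes lie between 8.58 and 109 TPM, and Mt3 is the only member under the dotted line.

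Of the 10 members, 9 reached 1 TPM in both libraries, against 42.5% of protein-coding genes. The members were chosen with earlier results known, so this count may follow from that choice. The member list had a median of 25.3 TPM, close to the 23.5 TPM of protein-coding genes that were expressed in both libraries; over all protein-coding genes the median was 0.365 TPM. The plot of member levels shows a wide range within the set. To say which levels differ beyond their spread, the SD between libraries of log2(TPM + 1) was pooled over 10469 expressed genes, giving 0.63, and a mean difference was read as apart beyond its 95% bound of 1.23 with 1 direction in both libraries. From high to low the order was Mt1, Mt2, Slc39a7, Slc39a1, Slc39a8, Slc30a5, Mtf1, Slc39a10, Slc30a1 and Mt3. Of the 9 pairs of neighbours, 3 were apart. Mt2 exceeded Slc39a7 by 4.47 ± 0.38 and Slc39a7 exceeded Slc39a1 by 1.73 ± 0.33 in log2 units, and Slc30a1 exceeded Mt3 by 3.19 ± 0.28 (SD, n = 2 for each). Mt1 exceeded Mt2 by 0.71 ± 0.03 (SD, n = 2), in both libraries but within the bound. The stretch from Slc39a1 to Slc30a1 had no neighbours apart, and 2 pairs in it, Slc39a1 with Slc39a8 and Slc30a5 with Mtf1, changed places between the libraries.

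Among the importers, Slc39a7 led, and the members held most of the family's TPM. Slc39a7, or ZIP7, which releases zinc from the endoplasmic reticulum and Golgi into the cytosol, had 127.40 TPM in replicate 1 and 91.23 TPM in replicate 2, a mean of 109 ± 25.6 TPM (SD, n = 2). Slc39a1, or ZIP1, an importer of the plasma membrane found in most cells, had 31.89 and 31.67 TPM, a mean of 31.8 ± 0.16 TPM (SD, n = 2). Slc39a7 was the highest of the 14 Slc39 genes in both libraries, and Slc39a1 gave almost the same TPM in each. Slc39a8, or ZIP8, which carries zinc, manganese and iron, had 16.49 TPM in replicate 1 and 45.03 TPM in replicate 2, a mean of 30.8 ± 20.2 TPM (SD, n = 2). Slc39a10, or ZIP10, a plasma membrane importer that zinc represses through MTF1 in mouse cells, had 11.57 and 13.62 TPM, a mean of 12.6 ± 1.45 TPM (SD, n = 2). Of these 4 importers Slc39a8 differed most between the libraries, and its place relative to Slc39a1 is not settled by these data. Slc39a7 made up 52.3% of the TPM summed over the family in replicate 1 and 39.2% in replicate 2, Slc39a1 13.1% and 13.6%, and Slc39a8 6.78% and 19.4%. The 4 members together held 77.0% and 78.1%, a share that may follow from their choice with earlier results known.

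The importers lie apart in the genome. Slc39a7 (ENSMUSG00000024327.11) is on the minus strand of chromosome 17 from 34028269 to 34031682, and 76.2% of its 36-base words also occur in Gm20427, a transcript on the same strand with 3.13 and 4.48 TPM, so the division of reads between them is uncertain. Slc39a1 (ENSMUSG00000052310.9) is on the plus strand of chromosome 3 from 90248172 to 90253612 and shares 25.7% of its words with other sequences, among them the pseudogene Slc39a1-ps, which had 0.42 and 0.07 TPM. Slc39a8 (ENSMUSG00000053897.11) is on the plus strand of chromosome 3 from 135825279 to 135888572. Slc39a10 (ENSMUSG00000025986.6) is on the minus strand of chromosome 1 from 46807544 to 46892852. These last genes share under 2% of their words with others, at 0.594% and 1.54%.

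Across the Slc39 family, 9 of 14 genes reached 1 TPM in both libraries, against 42.5% of protein-coding genes. The other 5 expressed genes were lower than Slc39a7 and Slc39a1 in both. Slc39a9, a Golgi transporter, had 17.22 and 17.30 TPM, Slc39a13, of the secretory pathway, 12.20 and 8.40 TPM, Slc39a3 9.54 and 7.28 TPM, Slc39a11 8.20 and 8.55 TPM, and Slc39a6, a close relative of Slc39a10, 7.08 and 8.50 TPM. Slc39a4, the intestinal importer lost in the human disease acrodermatitis enteropathica, had 1.17 TPM in replicate 1 and 0.63 TPM in replicate 2. Slc39a2, Slc39a5, Slc39a12 and Slc39a14 stayed at 0.30 TPM or below in both. Slc39a1 exceeded Slc39a3 by 1.81 ± 0.24 and Slc39a2 by 4.71 ± 0.07 in log2 units, and Slc39a8 exceeded Slc39a14, which also carries manganese and iron, by 4.66 ± 1.16 (SD, n = 2 for each), all beyond the bound. In replicate 1 alone the difference of Slc39a1 from Slc39a3, 1.64, lay inside the bound of 1.74 for a single library. Slc39a10 exceeded Slc39a6 by 0.63 ± 0.01 (SD, n = 2), within the bound.

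**Figure D2:**
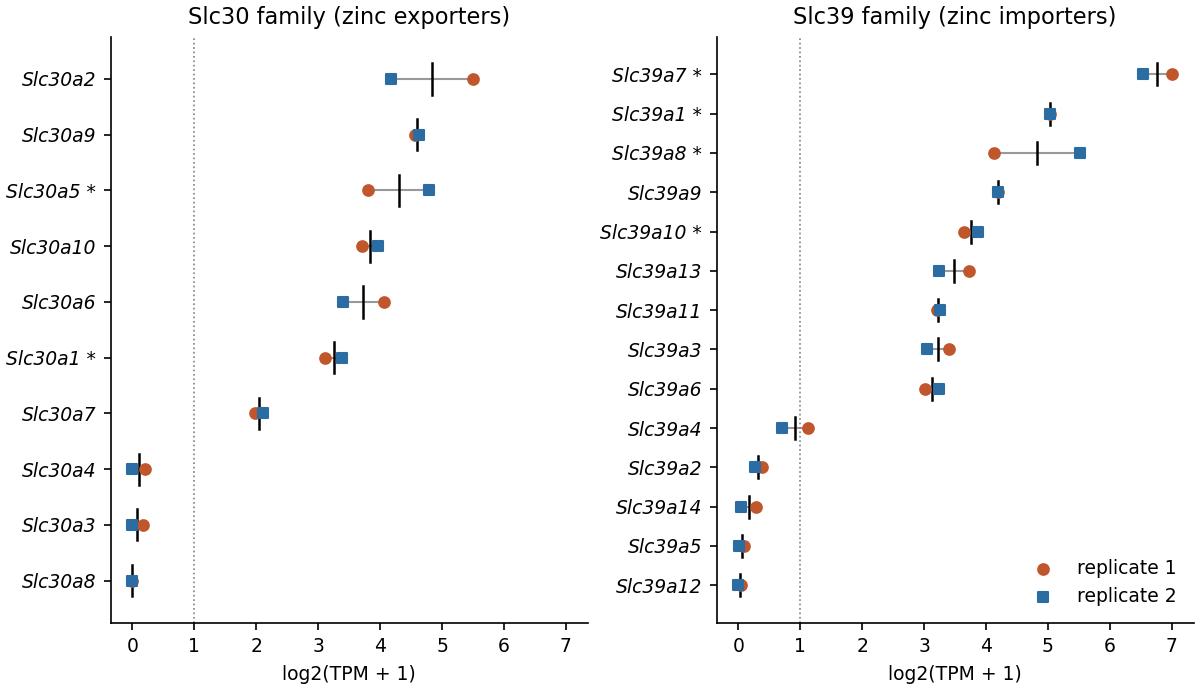
Level of the 10 Slc30 genes (left) and the 14 Slc39 genes (right) as log2(TPM + 1), with circles for replicate 1, squares for replicate 2, black bars for means, a dotted line at 1 TPM and stars beside member genes. Of the exporters 7 of 10 and of the importers 9 of 14 lie right of the line in both libraries; Slc39a7 is the highest gene of its family in both, while the top exporter differs between the libraries.

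Among the exporters no single gene led in both libraries. Slc30a1, or ZnT1, the main zinc exporter of the plasma membrane and a target of MTF1, had 7.68 TPM in replicate 1 and 9.48 TPM in replicate 2, a mean of 8.58 ± 1.27 TPM (SD, n = 2). Slc30a5, or ZnT5, which loads zinc into the early secretory pathway, had 12.95 TPM in replicate 1 and 26.81 TPM in replicate 2, a mean of 19.9 ± 9.80 TPM (SD, n = 2). Slc30a1 was the lower of these members in both libraries, but Slc30a5 exceeded it by a mean of 1.05 ± 0.51 in log2 units (SD, n = 2), within the bound. Slc30a1 (ENSMUSG00000037434.7) lies on the plus strand of chromosome 1 from 191906767 to 191913247, and 8.28% of its 36-base words occur in the antisense gene 1700034H15Rik, which had 3.21 and 2.40 TPM. Slc30a5 (ENSMUSG00000021629.9) lies on the minus strand of chromosome 13 from 100802648 to 100833427 and shares 2.61%.

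Of the 10 Slc30 genes, 7 reached 1 TPM in both libraries, against 42.5% of protein-coding genes. Slc30a2, known for filling secretory vesicles in the mammary gland, had 44.48 TPM in replicate 1 and 17.04 TPM in replicate 2, or 37.4% and 16.3% of the family's summed TPM. Slc30a5 made up 10.9% and 25.7% of that sum and Slc30a1 6.46% and 9.07%, so Slc30a2 was the top exporter in replicate 1 and Slc30a5 in replicate 2. Slc30a9 had 22.72 and 23.65 TPM, Slc30a6, the partner of Slc30a5 in a heterodimer, 15.66 and 9.59 TPM, Slc30a10, a manganese exporter, 12.09 and 14.60 TPM, and Slc30a7, of the Golgi, 2.95 and 3.30 TPM. Slc30a8, the transporter of insulin granules, had no count in either library. Slc30a3 and Slc30a4 were at 0.12 and 0.15 TPM in replicate 1, with no count at all in replicate 2. Slc30a5 exceeded Slc30a7 by 2.26 ± 0.62 in log2 units (SD, n = 2), beyond the bound. Slc30a5 was below Slc30a6 in replicate 1, at -0.26, and above it in replicate 2, at 1.39, and Slc30a1 differed from Slc30a10 by -0.58 ± 0.01 (SD, n = 2), within the bound.

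Importer TPM exceeded exporter TPM as a sum, but not without Slc39a7 in replicate 1 and not in the level of the median gene. The 14 Slc39 genes added up to 243 and 232 TPM in replicates 1 and 2. The 10 Slc30 genes added up to 119 and 104 TPM. The ratio of the sums was 2.05 and 2.23, a mean of 2.14 ± 0.125 (SD, n = 2), and Slc39a7, which works inside the cell, held 127.40 and 91.23 TPM of the importer sum. Part of that was assigned to transcripts annotated with a retained intron. Slc39a7-202 held 40.76 and 12.76 TPM and Slc39a7-204 held 21.47 and 19.09 TPM in replicates 1 and 2. The sums are thus not of coding message alone. Without Slc39a7 the importers added up to 116 and 141 TPM, or 0.976 and 1.35 times the exporter sum. The median importer had 8.87 and 8.45 TPM and the median exporter 9.88 and 9.53 TPM. Between particular genes, Slc39a8 exceeded Slc30a1 by 1.01 in replicate 1 and 2.13 in replicate 2, a mean of 1.57 ± 0.79 in log2 units (SD, n = 2), beyond the bound. Slc39a7 exceeded Slc30a5, which fills the compartments that Slc39a7 empties, by 3.20 and 1.73, a mean of 2.47 ± 1.04 (SD, n = 2). In replicate 1 alone the Slc39a8 difference was inside the single-library bound of 1.74, and in replicate 2 alone the Slc39a7 difference was.

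**Figure D3:**
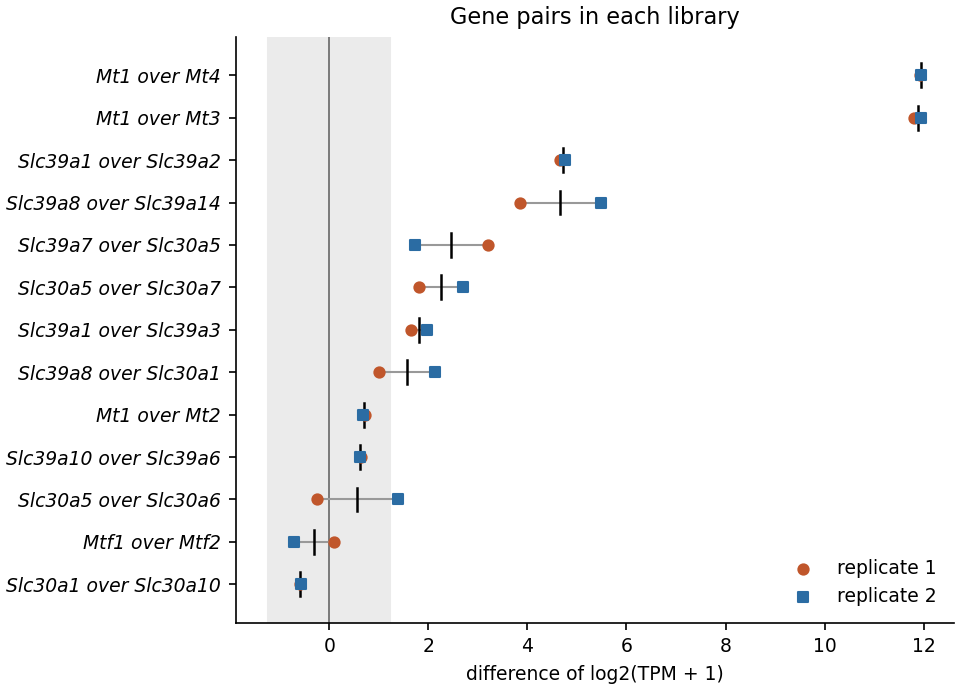
Difference of log2(TPM + 1) for 13 gene pairs, first gene minus second, with circles for replicate 1, squares for replicate 2, black bars for means and a grey band for the bound of 1.23 on either side of 0. Of the 13 pairs, 8 have means beyond the band, from 1.57 for Slc39a8 over Slc30a1 to 11.94 for Mt1 over Mt4, and 2 pairs change sign between the libraries.

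The libraries gave several members different shares of their counts. Counts were scaled by TMM library sizes and a gene was called apart at a 2-fold ratio of replicate 1 over replicate 2, among 12406 genes with at least 50 counts in all; 1 library stands against 1, so there is no test. None of the members was called higher in replicate 1, against a background of 10.2% of genes, and 3 were called lower, against 22.3%. The 3 were Slc39a8, Slc30a5 and Slc39a10, with log2 ratios of -1.76, -1.35 and -1.11, and they were 3.39-fold, 2.54-fold and 2.15-fold higher in replicate 2. The median log2 ratio over all 12406 genes was itself -0.28. Relative to that median the ratios were -1.49 for Slc39a8, -1.07 for Slc30a5 and -0.83 for Slc39a10, so that 2 members stayed beyond 2-fold. Mt1 at 0.01, Slc39a1 at -0.01, Mt2 at -0.04 and Slc39a7 at 0.11 sat on the median gene, Slc30a1 was at -0.57 and Mtf1 at 0.75. Mt3, with 1 count, was not in this comparison.

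The ratio moved with base composition over all genes, with a fitted trend of -0.72 at the GC content of Slc39a8 and -0.04 at that of Slc39a1. The 3 genes called lower had a GC content over their transcripts of 44.9% for Slc39a8, 43.9% for Slc30a5 and 44.4% for Slc39a10, below the 50.05% of the median gene, while Mt1 had 54.6% and Mt2 53.8%. After subtraction of the trend of the ratio on GC content, the log2 ratio was -1.05 for Slc39a8, -0.50 for Slc30a5 and -0.33 for Slc39a10, and 1 member, Slc39a8, was still 2-fold lower in replicate 1, against 9.74% of all genes. The lengths of the reads also differed, at 36 and 55 bases, and their part in the ratios was not tested. On the TPM scale the log2 ratio was -1.44 for Slc39a8, -1.04 for Slc30a5 and -0.23 for Slc39a10. For Mtf1 and Slc39a7 the sign depended on the scale, with 0.48 and -0.16 from scaled counts against -0.14 and 0.48 from TPM, so no direction is given for them.

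**Figure D4:**
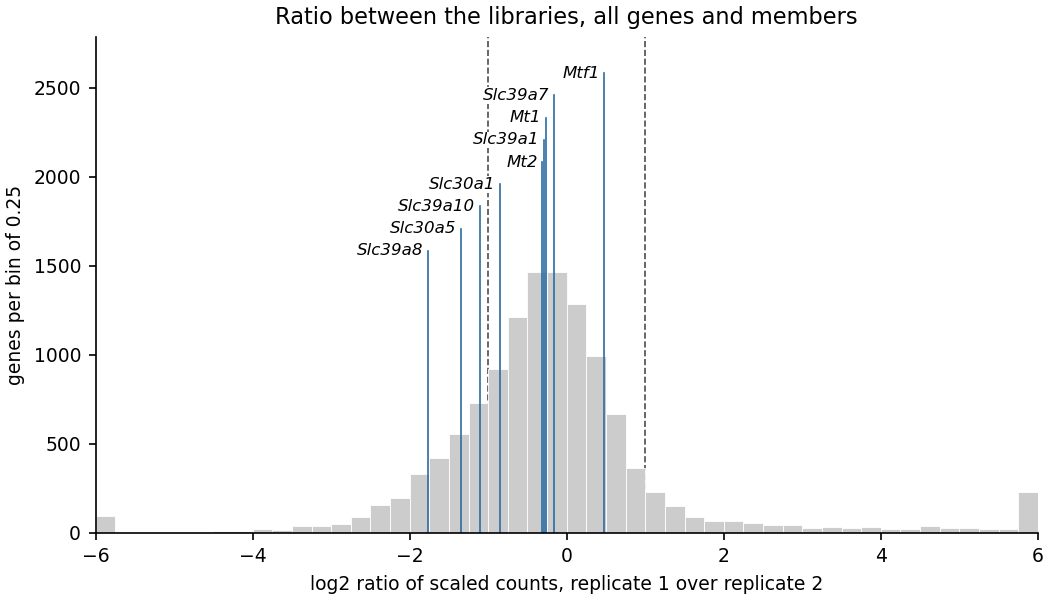
Histogram of the log2 ratio of TMM-scaled counts, replicate 1 over replicate 2, for 12406 genes with at least 50 counts (grey, ratios beyond the axis counted in the end bins), with a line for each of 9 members and dashed lines at 2-fold. Slc39a8, Slc30a5 and Slc39a10 lie left of the dashed line at -1.76, -1.35 and -1.11, and Mt1, Mt2, Slc39a1 and Slc39a7 lie near the centre of all genes at -0.28.

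The members also differed in how many transcripts the tables list and in whether the same one led in both libraries. Mt1, Mt2, Mt3, Slc30a5 and Slc39a1 have 1 transcript each in the tables, which reflects the annotation and does not show firm assignment. Of the 5 members with several transcripts, 1 had the same leading transcript in both libraries, against 69.3% of 6922 protein-coding genes with several transcripts and at least 50 counts in each library. That gene was Slc39a8, whose protein-coding Slc39a8-201 took 52.4% of the gene's TPM in replicate 1 and 46.3% in replicate 2. For Mtf1 the leading transcript was the protein-coding Mtf1-202 in replicate 1, with 58.5%, and in replicate 2 Mtf1-204, a short transcript with a retained intron, with 68.2%. For Slc39a10 it was Slc39a10-202, also with a retained intron, at 75.4% in replicate 1, and the protein-coding Slc39a10-201 at 72.9% in replicate 2. Slc39a7 was led by Slc39a7-202 (retained intron) at 32.0% in replicate 1 and by Slc39a7-201 at 46.9% in replicate 2. Slc30a1 was led by Slc30a1-202 at 54.9% in replicate 1 and by Slc30a1-201 at 56.2% in replicate 2. With protein-coding transcripts alone, 3 of the 5 members, Slc39a7, Slc39a8 and Slc39a10, had the same leading transcript in both libraries, against 79.5% of 6919 genes. With the leading transcript at 50% or more in both libraries, none of the 5 did, against 52.8%. The Mtf1, Slc39a7, Slc39a8 and Slc39a10 levels therefore include TPM assigned to transcripts annotated with a retained intron. In Slc39a8 these were Slc39a8-204, with 7.54% and 1.57% of the gene's TPM, and Slc39a8-203, with 0.63% and 1.12%.

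**Figure D5:**
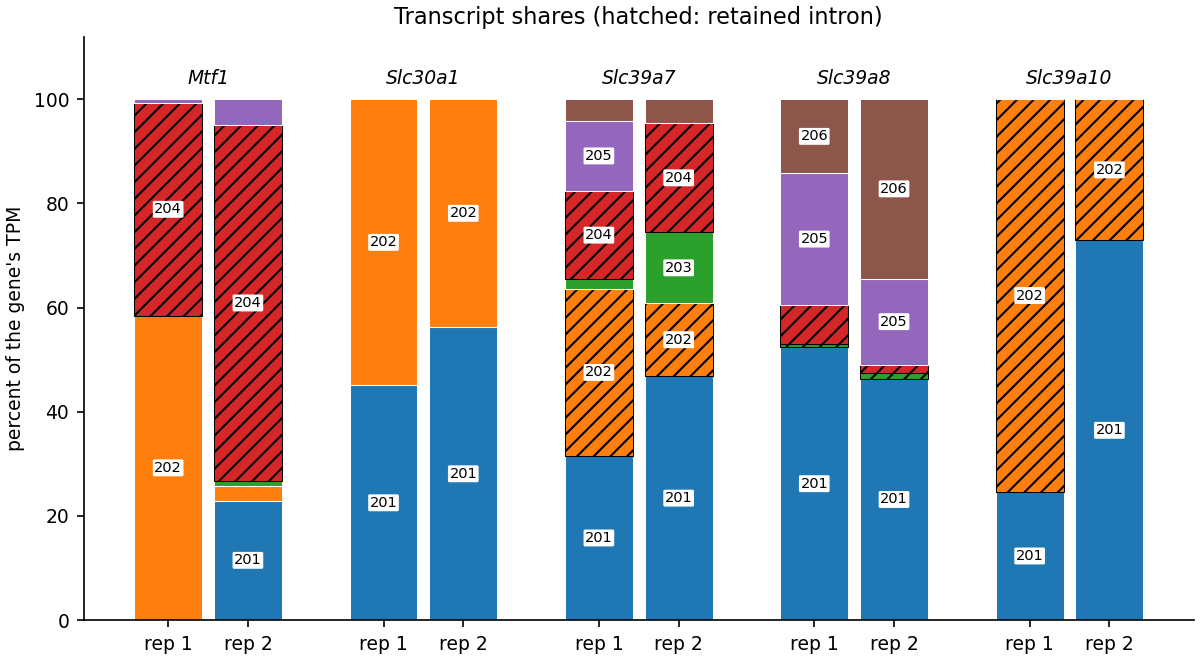
Percent of each gene's TPM assigned to its transcripts, as stacked bars for replicate 1 (left) and replicate 2 (right) of the 5 members with several transcripts; numbers name the transcript and hatching marks those annotated as retained intron. Slc39a8 is led by transcript 201 in both libraries, while the leading transcript differs in Mtf1, Slc30a1, Slc39a7 and Slc39a10.

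For scale, the protein-coding genes nearest to Mt1 over both libraries, by the summed absolute difference of log2(TPM + 1), were mt-Cytb, Ptma and Fth1, at distances of 0.245, 0.247 and 0.252. Fth1, the ferritin heavy chain that stores iron, had 4041.24 TPM in replicate 1 and 4553.30 TPM in replicate 2. Nearest to Mt2 were mt-Co1, Lgals1 and Hsp90ab1, at 0.056, 0.106 and 0.137. The likeness is one of level over 2 libraries and says nothing of shared control. Of 4 other genes listed as MTF1 targets, 3 reached 1 TPM in both libraries: Selenow, a small selenoprotein, with 530.79 and 300.25 TPM, Gclc, the catalytic subunit of the enzyme that starts glutathione synthesis, with 32.79 and 37.10 TPM, and the stress gene Ndrg1 with 20.48 and 2.67 TPM. Csrp1 was at 0.79 and 0.35 TPM.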

How the data were processed

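A gene and a transcript table were deposited per library. The assembly mm10 and annotation M4 are named in the deposited notes; the sources used here do not give the aligner, quantifier or use of strand. The expected counts were deposited without normalisation. The TPM and FPKM values, per the file headers, were divided by effective length; FPKM served only as an alternative to TPM. The deposited signal columns hold a posterior mean of TPM with its bounds, and the deposited percent column gives each transcript's share of its gene's TPM.

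Identifiers were matched without version to GENCODE M21 (42462 matched, 884 did not). The 26345 entries that name no gene, with 0.0363% and 0.00942% of counts, were left out of library sizes. Counts were rounded for TMM scaling in edgeR 4.0.16 (R 4.3.3), with factors of 1.07 and 0.934, and 0.5 was added before ratios. DESeq2 1.42.0 gave alternative size factors. GC trends used a lowess span of 0.3 (statsmodels 0.14.6), and coding alignments Biopython. The rest was done in Python 3.11.15 with pandas 2.3.3, numpy 2.4.6 and matplotlib 3.10.9. With 1 group of 2 libraries, no p-value was computed. The genes named are the members, listed genes at 1 TPM or more in both libraries or at 0 counts in both (marker lists mostly as counts), 13 gene pairs and the 3 genes nearest in level to Mt1 and to Mt2; other list genes and the neighbours of the cluster were named after their values were seen. Members, lists and pairs were chosen with earlier results of these data known. Alternatives covered scaling, minima, pseudocounts, TPM rescaling, the GC trend, FPKM, the motif, leading transcripts and leaving out each library.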

Additional observations from a re-analysis of the deposited data

How the results depend on the processing

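Mt1 and Mt2 made up 0.634% of the whole TPM total, 1.04% of protein-coding TPM without ribosomal protein and mitochondrial genes, and 0.266% of expected counts, against 0.798% as reported; these differ by what is summed. Members called lower in replicate 1 numbered 3 as reported (22.3% of all genes), 1 with the GC trend subtracted (9.74%), and 2 with total counts (17.4%), with TPM (14.3%), with rescaled TPM (17.6%) and relative to the median gene (15.8%), the last chosen after seeing the data. With no count minimum Mt3 was also called, higher in replicate 1 on its single count, as were 33.9% of all 43346 genes. On the forward strand alone, 3 members (Mt1, Mt2 and Mt3) held the metal response core in place of 6. The matches of Slc30a1, Slc30a5 and Slc39a8 lay only on the opposite strand. The share of all windows fell as well, to 14.9% from 25.9%. With TGCACAC or TGCGCNC only, 5 members held a match, against 19.3% of all windows. In these settings members are counted as genes and the background as windows. Leaving out each library in turn gave 9 members, 7 exporters and 9 to 10 importers at 1 TPM or more, 6 to 7 of 13 pairs beyond the bound, 2 to 3 neighbours apart and a share of 0.743% to 0.852%. Of 53 values of the main results under an alternative, 32 were as reported and 21 differed, 5 of them by over 1.5 times or beyond the SD. Of the 5 members with several transcripts, 1 had the same leading transcript in both libraries, against 69.3% of genes. With protein-coding transcripts only it was 3, against 79.5%, and with at least 50% in both libraries none, against 52.8%. With single-transcript members included, which pass by construction, these counts became 5, 7 and 4 of 9. Of the values for single genes and pairs, 192 stayed on their side or within their spread, 21 moved and 9 fell short of a threshold they had passed. Part of the 192 stayed by construction. Another count minimum leaves each member's ratio as it is. The alternative spreads leave each pair difference as it is and only lower the bound, to 0.98 and 0.84 from 1.23. With 2 libraries from 1 biosample, read lengths of 36 and 55 bases and no strand information, transcript shares and differences under the bound are not resolved. No paired analysis was possible because there is 1 group.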

Other observations

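Genes that use zinc or handle other metals were also measured from gene lists, which were chosen with earlier results known. For comparison, 42.5% of all protein-coding genes reached 1 TPM in both libraries, and the median of those was 23.5 TPM. All 5 listed zinc enzymes reached 1 TPM in both libraries, and their median was 464 TPM. Car2, a carbonic anhydrase of red cells, had 2101.56 TPM in replicate 1 and 1785.12 TPM in replicate 2, Car1 358.78 and 634.63 TPM, Sod1, the copper and zinc superoxide dismutase, 375.64 and 552.09 TPM, and Alad, the zinc enzyme of haem synthesis, 180.10 and 202.98 TPM. Adh5 had 78.22 and 105.23 TPM. All 10 genes of copper handling also reached 1 TPM in both, with a median of 22.6 TPM, no higher than that of expressed protein-coding genes. Atox1, a copper chaperone, was the highest in both libraries at 225.59 and 198.09 TPM, followed by Cox17, which delivers copper for cytochrome oxidase, at 92.76 and 188.24 TPM. The copper importer Slc31a1 had 16.90 and 25.11 TPM. The export pump Atp7a had 1.46 and 3.40 TPM and its relative Atp7b, best known in liver, had 19.10 and 8.41 TPM.

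Of 6 genes of glutathione and thioredoxin metabolism, 5 reached 1 TPM in both libraries, against 42.5% of protein-coding genes. Gclm, the modifier subunit of the enzyme that starts glutathione synthesis, had 259.89 and 258.08 TPM, Gsr 68.08 and 60.83 TPM, Txnrd1 63.71 and 71.93 TPM, and Gss 51.13 and 38.38 TPM. Slc7a11, the cystine importer, had 1.72 TPM in replicate 1 and 0.28 TPM in replicate 2.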
